A study of Mus musculus with 17 samples.

Results

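Reelin is a secreted protein that guides migrating neurons, and 10 genes that carry its signal were followed here in mouse brain: the ligand Reln, the lipoprotein receptors Vldlr and Lrp8, the integrin subunits Itga3 and Itgb1, the adaptor Dab1, the kinase Fyn, the adaptors Crk and Crkl, and Pafah1b1. The members were chosen by name, because HAR1 RNA is known from human cortex to be made in the Cajal-Retzius cells that secrete reelin, and all 10 were found among the 45147 features that remained after the deposited transcript rows were summed by gene. Earlier results of these data were known when the choice was made. The series holds RNA-seq libraries from brain of mice on a C57BL/6 background: 6 libraries from mice that carry a transgene for overexpression of the long noncoding RNA HAR1A, and 11 from normal mice as controls. The labels give no promoter, brain part, age or sex, and do not say whether each library is a separate animal, so the p-values below measure the spread between libraries. All 6 transgene libraries were read on lane 4 of 1 flow cell with 3 of the controls, while 6 controls were read on lane 8, 1 on lane 2 and 1 on lane 6 of another flow cell. The comparison was therefore made over all libraries and again within lane 4. No value of the transgene RNA itself is used, and the labels of the groups could not be checked with it. Numbers given to libraries only name them.

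Reelin binds the receptors Vldlr and Lrp8 (also called ApoER2) on neurons, which leads the kinases Fyn and Src to phosphorylate the intracellular adaptor Dab1. Phosphorylated Dab1 recruits Crk and Crkl, which pass the signal to the small GTPase Rap1 and adhesion proteins, and it also binds Pafah1b1, better known as Lis1, a regulator of the motor dynein. In mouse, loss of Reln or Dab1, or of both lipoprotein receptors together, disorders the layers of cortex, hippocampus and cerebellum. In the embryo the ligand comes from Cajal-Retzius cells and from cerebellar granule cells, and in the adult brain from granule cells and some interneurons.

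The deposited tables count reads per transcript, and a read that fits more than 1 transcript is counted for none, so the level of a gene rests on the bases that only 1 of its rows holds. The 10 genes had 28 deposited rows, of which 22 had at least 1 such base and the other 6 had no count in any library. Itgb1 (chr8:128685654-128733200, ENSMUSG00000025809.15) and Crkl (chr16:17451987-17487434, ENSMUSG00000006134.4) had 1 row each and were measured along their whole length, in mm10 coordinates. Reln (chr5:21884454-22344702, minus strand, ENSMUSG00000042453.14) was measured only through the row Reln-207, on 814 bases: 796 at the end of the 3′ UTR, 12 in the 5′ UTR and a coding exon of 6 bases. Of the exon bases of Reln, 246 are shared with the opposite-strand gene Gm10475, which had 44 counts in all libraries together, and the sources used here do not say whether counting used strand. The other members lie at chr4:103619359-104744844 (Dab1), chr19:27216484-27254231 (Vldlr), chr4:107802261-107876840 (Lrp8), chr11:95044474-95076801 (Itga3), chr11:75679259-75706908 (Crk), chr10:39368855-39565381 (Fyn) and chr11:74673949-74724670 (Pafah1b1), and share no exon base with another gene.

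The longest coding stretch that 1 row of a gene alone holds is printed for 5 members, because it shows which form of the protein that row stands for. The levels of Fyn-202, Lrp8-203 and Crk-201 rest on these stretches wholly or for the most part (165 of 165, 123 of 126 and 170 of 195 bases), whereas Vldlr-207 was read on 4369 bases of 3′ UTR beside the 84 printed, and Reln-207 mostly on 3′ UTR as well. Capitals mark the bases found in that row alone, lower case the neighbouring bases of the same transcript, taken from the GENCODE M21 transcripts (mm10).
Reln-207, chr5:21891562-21891567, minus strand: ggaggtcgtcctAGTAAGcactcgcaaaca
Vldlr-207, chr19:27246593-27246676, plus strand: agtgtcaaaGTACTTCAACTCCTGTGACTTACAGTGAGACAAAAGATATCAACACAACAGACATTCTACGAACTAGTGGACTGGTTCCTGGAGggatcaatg
Lrp8-203, chr4:107848281-107848403, plus strand: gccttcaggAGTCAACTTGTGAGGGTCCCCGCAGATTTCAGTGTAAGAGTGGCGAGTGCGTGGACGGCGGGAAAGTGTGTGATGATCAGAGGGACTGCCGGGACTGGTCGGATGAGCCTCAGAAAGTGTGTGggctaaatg
Fyn-202, chr10:39529437-39529601, plus strand: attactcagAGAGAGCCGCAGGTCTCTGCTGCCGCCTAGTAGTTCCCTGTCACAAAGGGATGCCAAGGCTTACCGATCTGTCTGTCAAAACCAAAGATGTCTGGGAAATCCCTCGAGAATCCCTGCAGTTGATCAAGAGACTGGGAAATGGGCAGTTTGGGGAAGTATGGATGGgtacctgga
Crk-201, chr11:75692563-75692732, plus strand: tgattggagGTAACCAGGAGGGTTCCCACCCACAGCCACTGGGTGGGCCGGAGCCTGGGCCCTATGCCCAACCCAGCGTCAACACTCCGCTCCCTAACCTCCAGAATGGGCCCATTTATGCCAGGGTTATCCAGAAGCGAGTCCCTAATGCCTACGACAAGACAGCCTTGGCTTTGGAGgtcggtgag

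The 6 bases of Reln-207 add 2 codons and are the short exon that neurons include in reelin mRNA. The 84 bases of Vldlr-207 add 28 codons for the stretch of the receptor that carries O-linked sugars. The 123 bases of Lrp8-203 encode a cysteine-rich ligand-binding repeat of the LDL receptor type. The 165 bases of Fyn-202 mark the brain form of the kinase, as opposed to the form of T cells, and the 170 bases of Crk-201 mark the long form of the adaptor (CrkII), which a shorter form (CrkI) lacks.

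Between 17067407 and 22642441 counts per library were assigned to rows, and 41.5% ± 0.92 (SD, n = 17) of reads were set aside as ambiguous. Levels are given as CPM (read counts scaled to a common library total), scaled between libraries by the TMM method of edgeR. The groups also differed in markers of brain parts: all 8 genes of the hindbrain and cord list were lower in the transgene libraries (list summed to 1.61 to 4.73 CPM, against 49.9 to 412 in controls), and 7 of 8 forebrain excitatory neuron genes were higher (1411 to 2579 CPM against 188 to 1184). All 8 cerebellar granule cell genes were lower, at 73.7 to 501 CPM in transgene libraries against 131 to 2939 in controls, and 6 of 7 Purkinje cell genes. Of the other lists, 8 of 8 striatal genes and 5 of 7 interneuron genes were higher, 5 of 6 astrocyte, 3 of 5 blood and 1 of 4 tested endothelial genes were lower, 5 oligodendrocyte genes were lower and 1 higher of 6, 2 of 3 tested microglia genes were higher, and none of 5 tested choroid plexus genes changed. No marker of these lists was at 0 in every library of either group. Control 7 stood apart from the other controls with 131 CPM of granule cell markers and the highest hindbrain sum, 412 CPM, and transgene 3 from the other transgene libraries with 501 CPM of granule cell markers. In bulk tissue, fewer cells of a type and less RNA per cell cannot be told apart. Of these lists only that of granule cells was used as a covariate in the results below. The part that the other lists play was not tested, and neither was any cause.

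Over all libraries 1 of the 10 members rose in the transgene group and 5 fell (edgeR quasi-likelihood test, Benjamini-Hochberg adjusted over 19136 genes, threshold 0.05). Dab1 rose, and Reln, Vldlr, Itga3, Itgb1 and Crkl fell. Among all tested genes 47.4% were called, 23.0% higher and 24.4% lower, so the count of 6 of 10 stands near the background, and no member but those named passed. The median log2 fold change of the 10 members was -0.22, beside -0.05 for all genes. Within lane 4, where 25.6% of 19261 genes were called (13.6% higher, 12% lower), 1 member rose (Dab1) and 3 fell (Itga3, Itgb1 and Crkl), so 4 members were called in both comparisons, and Reln and Vldlr over all libraries alone. The members' median there was -0.16, beside -0.04 for all genes. The 2 comparisons share the transgene libraries and 3 controls and are not independent of each other.

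**Figure D1:**
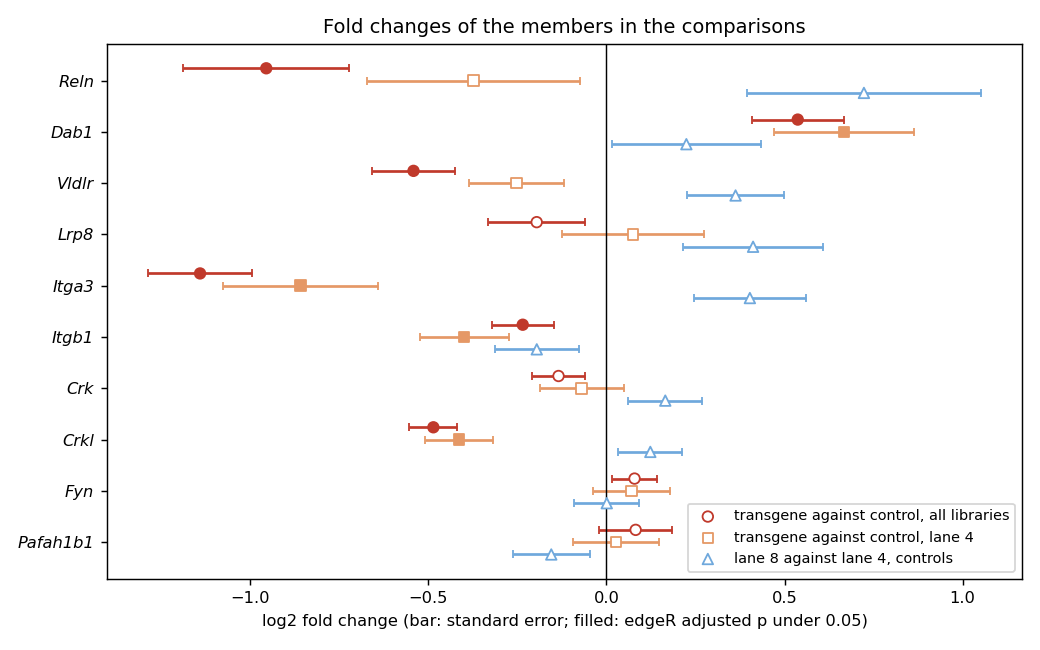
Log2 fold change of each of the 10 members (x axis, bar: standard error) in the transgene group against controls over all libraries and within lane 4, and in lane 8 against lane 4 controls. Filled symbols passed the adjusted threshold of 0.05: Reln and Vldlr are filled over all libraries only, and no member is filled between the lanes.

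The controls themselves were compared between lanes, 6 libraries of lane 8 against 3 of lane 4, to show how far the members differ without the transgene. No gene of 19384 was called by edgeR (percentage called 0), 1 was called by DESeq2 and 1543 had an unadjusted p under 0.05. Reln was 0.72 ± 0.33 log2 higher on lane 8 (adjusted p = 0.581). Vldlr was 0.36 ± 0.14, Lrp8 0.41 ± 0.20 and Itga3 0.40 ± 0.16 log2 higher on lane 8, each with an adjusted p of 0.581. Itga3 was the 1 member whose lanes did not overlap, higher on lane 8, where 2.62% of all genes had no overlap (1.52% higher, 1.10% lower).

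Reln, the ligand, had 19.5, 23.2 and 27.8 CPM as the lowest, median and highest transgene library, and 12.4, 46.2 and 64.4 CPM among the controls. The transgene libraries lay close together, below 10 of the 11 controls, but above control 7, which was the lowest of all 17. Means were 23.3 ± 3.2 CPM (SD, n = 6) and 45.2 ± 14.7 CPM (SD, n = 11), a log2 fold change of -0.96 ± 0.23 (standard error, adjusted p = 0.00238). Within lane 4 the 3 controls spread over almost the whole range of the series, with 12.4 CPM in control 7, 31.2 in control 11 and 46.2 in control 8. The difference there was -0.37 ± 0.30 (adjusted p = 0.402). Without control 7 it became -0.74 ± 0.17 (adjusted p = 0.0125), and without control 8 it was 0.09 ± 0.27 (adjusted p = 0.855). The call within lane 4 therefore turned on single control libraries.

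Granule cell markers moved with Reln among the controls, and so did other lists. Over the 11 controls Pearson's r with Reln was 0.93 for the granule cell list, 0.94 for Purkinje cells and 0.84 for Cajal-Retzius cells. It was -0.77 for oligodendrocytes and -0.69 for astrocytes. Over the 6 transgene libraries r was 0.11 for granule cells, 0.97 for forebrain excitatory neurons, 0.89 for interneurons and -0.91 for astrocytes. No list but that of granule cells was used as a covariate. Control 7, with 131 CPM of granule cell markers, had 12.4 CPM of Reln, control 11 had 992 CPM of markers and 31.2 of Reln, and the other 9 controls had 1985 to 2939 CPM of markers and 40.6 to 64.4 CPM of Reln. The transgene libraries, with marker sums of 73.7 to 501 CPM, had 19.5 to 27.8 CPM of Reln, and at nearly equal marker sums of 131 and 123 CPM control 7 and transgene 4 had 12.4 and 21 CPM. With the mean log2 level of the granule cell list as a covariate, the Reln difference was 0.52 ± 0.37 over all libraries (adjusted p = 0.349) and 0.53 ± 0.35 within lane 4 (adjusted p = 0.327), so its direction turned and it was not called. In a model with terms for lane and flow cell it was -0.36 ± 0.27 over all libraries and not called (adjusted p = 0.345). Because all transgene libraries are on lane 4, the fold change in that model rests on the lane 4 libraries. The other controls add only to the estimate of spread, so the result is not separate from the lane 4 comparison.

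**Figure D2:**
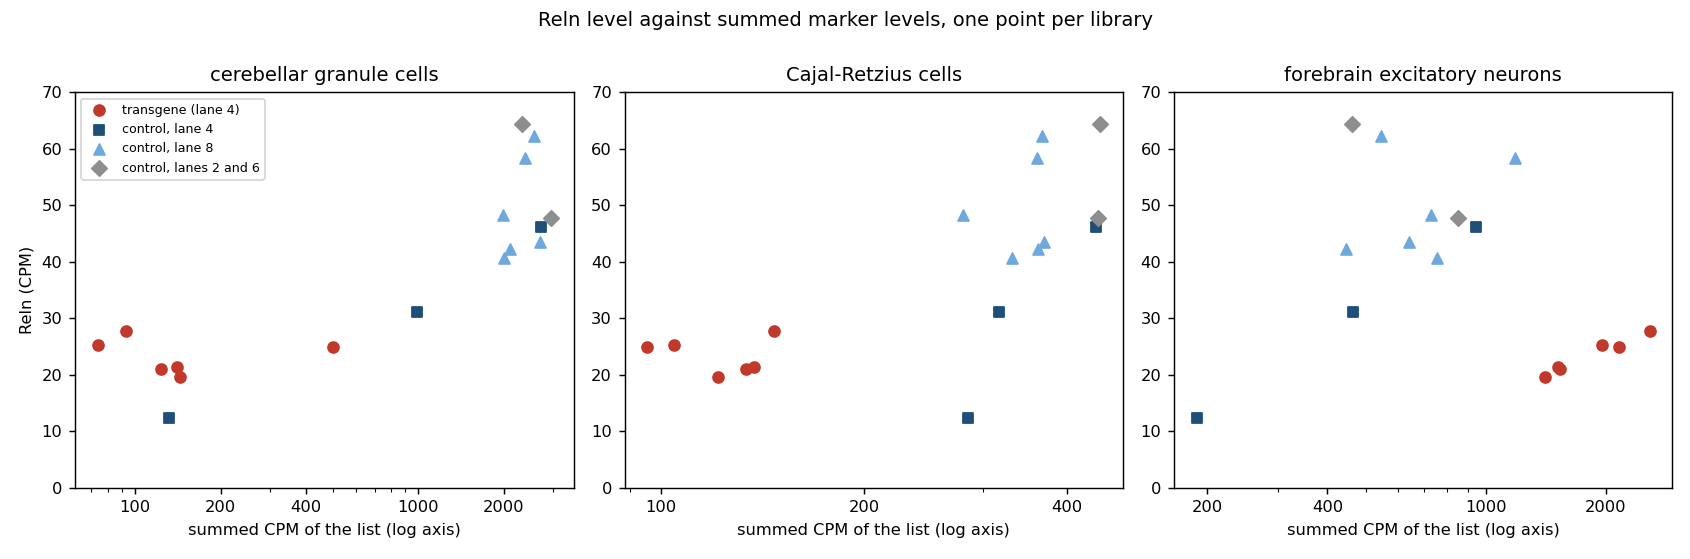
Reln level (y axis, CPM) in each library against the summed CPM of 3 marker lists (x axes, logarithmic), with symbols for group and lane. Control 7 lies at the lower left of the granule cell panel at 131 CPM of markers and 12.4 CPM of Reln, and the transgene libraries lie at 19.5 to 27.8 CPM of Reln in every panel.

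Listed genes of Cajal-Retzius cells, the cells that link HAR1 to reelin, were lower. Of the 9 genes, 8 fell over all libraries and 6 within lane 4, and none rose. Cerebellar and hindbrain genes fell in the same libraries, and whether Cajal-Retzius cells themselves were fewer was not tested. Trp73, a transcription factor that marks these cells, fell by 2.82 ± 0.53 log2 (adjusted p = 0.000238), from 3.38 ± 1.98 CPM in controls to 0.473 ± 0.299 CPM, with control 7 the lowest control at 0.233 CPM. Lhx1, a LIM-homeobox factor of these cells and also of Purkinje cells and hindbrain neurons, fell by 4.23 ± 0.68 (adjusted p = 5.21e-05). The list summed to 95.5 to 147 CPM in transgene libraries and 280 to 448 CPM in controls, and control 7 with its low Reln stood at 285 CPM. Calb2 alone had a mean log2 CPM of 7.21 and weighs heavily in these sums. Ndnf, which also marks interneurons, was the gene of the list that was not called, at 40.2 ± 15.0 against 38.8 ± 17.4 CPM. Interneuron genes that can accompany Reln in adult cortex rose in 5 of 7 cases over all libraries and in 4 of 7 within lane 4. Of all genes, 23.0% and 13.6% rose there. Among them Npy rose by 2.24 ± 0.27 and Sst by 1.55 ± 0.19 log2 over all libraries. Gad1 (0.19 ± 0.12, adjusted p = 0.20) and Lamp5 (0.21 ± 0.31, adjusted p = 0.60) were not called. Reln itself fell over all libraries and was not called within lane 4.

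Vldlr, the receptor linked in mouse to the stop of migration, had 59.6, 70.4 and 77.9 CPM as lowest, median and highest transgene library and 66.8, 106.7 and 132.5 CPM among the controls. Controls 7 and 11 fell within or at the edge of the transgene range, at 66.8 and 78.0 CPM, and the other 9 lay above it. The means of 69.2 ± 7.6 and 100.7 ± 18.1 CPM gave a log2 fold change of -0.54 ± 0.12 (adjusted p = 0.000859). Within lane 4 the value was -0.25 ± 0.13 (adjusted p = 0.197). The model with lane terms, whose fold change rests on the same lane 4 libraries, gave -0.24 ± 0.12 and no call (adjusted p = 0.166). Over all libraries the call was also lost with the granule cell list as a covariate, at -0.12 ± 0.21 (adjusted p = 0.728). Lrp8, the second lipoprotein receptor and a partner of NMDA receptors at synapses, had 26.8, 29.9 and 40.5 CPM in transgene libraries and 19.0, 36.3 and 45.5 CPM in controls, and the groups overlapped. Its log2 difference was -0.20 ± 0.14 over all libraries (adjusted p = 0.252) and 0.07 ± 0.20 within lane 4 (adjusted p = 0.823). The lowest control was again control 7, and without it Lrp8 was called over all libraries at -0.24 ± 0.097 (adjusted p = 0.0489), while the lane 4 value was -0.15 ± 0.16 (adjusted p = 0.564). The log2 ratio of Vldlr to Lrp8 counts within a library, which needs no scaling between libraries, was 1.16 ± 0.35 (SD, n = 6) with the transgene and 1.51 ± 0.24 (SD, n = 11) in controls, with overlapping ranges of 0.56 to 1.54 and 1.17 to 1.94.

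Itga3, the integrin alpha-3 subunit to which reelin also binds, was the least counted member, with 20 to 71 counts in a library. It stood at 0.987, 1.23 and 1.76 CPM as lowest, median and highest transgene library and at 2.27, 2.85 and 3.37 CPM among the controls. No transgene library reached any control. The log2 fold change was -1.14 ± 0.15 over all libraries (adjusted p = 4.88e-06) and -0.86 ± 0.22 within lane 4 (adjusted p = 0.0155), and the call held in each of the 17 and 9 fits that left out 1 library. The lane 4 call was lost without control 7 and transgene 3 together (-0.83 ± 0.28, adjusted p = 0.0735) and with the granule cell list as a covariate (-0.92 ± 0.32, adjusted p = 0.0644). The 3 controls of lane 4, at 2.27, 2.31 and 2.33 CPM, were below the 6 of lane 8, at 2.63 to 3.37 CPM. Itgb1, the beta-1 subunit that pairs with it and with many other alpha subunits, had 102, 114 and 126 CPM in transgene libraries and 112, 127 and 179 CPM in controls, with overlap. It fell by 0.24 ± 0.087 over all libraries (adjusted p = 0.0333) and by 0.40 ± 0.13 within lane 4 (adjusted p = 0.0381). Control 7 was the highest control, and without it the values were -0.16 ± 0.071 (adjusted p = 0.0606) and -0.23 ± 0.11 (adjusted p = 0.172). The Itgb1 call was kept in 11 of 17 and 3 of 9 fits that left out 1 library. With the granule cell list as a covariate the values were -0.64 ± 0.11 (adjusted p = 0.000732) and -0.65 ± 0.12 (adjusted p = 0.00449). Over all libraries the call was lost with RLE scaling (-0.22, adjusted p = 0.0514) and without the filter on low counts (-0.20, adjusted p = 0.097), and in lane 4 without that filter (-0.38, adjusted p = 0.0593). Taking the row with the most counts of each gene lost it over all libraries (-0.21, adjusted p = 0.0505). Without control 7 and transgene 3 together it was lost over all libraries (-0.14, adjusted p = 0.143) and in lane 4 (-0.21, adjusted p = 0.231). Leaving out transgene 2, 3, 4, 5 or 6 also ended it over all libraries (-0.22 to -0.18), and leaving out transgene 2, 3, 4 or 6 or control 11 within lane 4 (-0.42 to -0.37). The count ratio of Itga3 to Itgb1 was -6.46 ± 0.27 log2 with the transgene and -5.55 ± 0.35 in controls, overlapping between -6.25 and -6.14.

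Dab1, the adaptor that reelin signalling phosphorylates, was the member that rose. It had 142.9, 166 and 192.5 CPM as lowest, median and highest transgene library and 66.4, 113 and 156 CPM among the controls. Controls 3 and 8, at 156 and 142.5 CPM, reached or neared the transgene range, and the others lay below it. The means of 165 ± 18 and 114 ± 24 CPM gave a log2 fold change of 0.54 ± 0.13 (adjusted p = 0.00205), and within lane 4 the value was 0.67 ± 0.20 (adjusted p = 0.0303). Control 7 was the lowest control for Dab1 too, and without it the lane 4 value was 0.44 ± 0.15 (adjusted p = 0.0684). The lane 4 call was kept in 4 of 9 fits that left out 1 library, being lost also without control 11, transgene 2, transgene 3 or transgene 6 (0.62 to 0.66). With the granule cell list as a covariate its log2 fold change was 1.24 ± 0.19 over all libraries (adjusted p = 0.000312) and 1.20 ± 0.18 within lane 4 (adjusted p = 0.00173). The count ratio of Reln to Dab1 did not overlap between the groups: -2.96 to -2.65 log2 with the transgene and -2.42 to -0.59 in controls. This pair sets a member that fell over the member that rose. How many other gene pairs have ratios without overlap was not computed.

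Fyn, a Src-family kinase that phosphorylates Dab1, had 23.1, 25.7 and 28.9 CPM in transgene libraries and 22.7, 24.1 and 27.0 CPM in controls. The groups overlapped, and the log2 difference was 0.08 ± 0.06 over all libraries (adjusted p = 0.326) and 0.07 ± 0.11 within lane 4 (adjusted p = 0.684). The row Fyn-202, counted on the 165-base stretch of the brain form, held 92.6% of Fyn counts. Fyn-201, which lacks that stretch, was counted on only 43 bases, all in the UTRs. The share of counts is therefore not the share of the brain form. The log2 ratio of Fyn-202 to Fyn-201 counts was 3.73 ± 0.62 with the transgene and 3.67 ± 0.32 in controls.

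Crkl fell and its paralog Crk did not pass the test. Crkl had 93.5, 103 and 117 CPM as lowest, median and highest transgene library and 124, 148 and 166 CPM among the controls, and no transgene library reached any control. It fell by 0.49 ± 0.07 log2 over all libraries (adjusted p = 1.25e-05) and by 0.41 ± 0.10 within lane 4 (adjusted p = 0.0102), and the call held in each of the 17 and 9 fits that left out 1 library. With the granule cell list as a covariate the values were -0.31 ± 0.12 (adjusted p = 0.0576) and -0.35 ± 0.13 (adjusted p = 0.0868). Crk had 29.8, 31.1 and 35.8 CPM in transgene libraries and 27.5, 36.9 and 38.3 CPM in controls, with log2 differences of -0.13 ± 0.07 (adjusted p = 0.143) and -0.07 ± 0.12 (adjusted p = 0.713). Without control 11, its lowest control, Crk was called over all libraries at -0.17 ± 0.064 (adjusted p = 0.0404). Within a library the count ratio of Crk to Crkl was higher with the transgene, at -1.83 to -1.45 log2 against -2.26 to -1.91 in controls, with no overlap. Crkl alone had none either, and the share of gene pairs with such ratios was not computed. Per kilobase of row, the scale on which levels of different genes can be set side by side, Itgb1 stood at 29.8 ± 2.5 CPM per kb and Crkl at 20.6 ± 1.7 with the transgene (SD, n = 6), and at 35.1 ± 4.9 and 28.8 ± 2.5 in controls (SD, n = 11).

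Pafah1b1 had 164, 198 and 210.5 CPM as lowest, median and highest transgene library and 143, 172 and 258 CPM among the controls, with overlap. Its log2 difference was 0.08 ± 0.10 over all libraries (adjusted p = 0.539) and 0.03 ± 0.12 within lane 4 (adjusted p = 0.899). Of all 10 members, 2 had groups without overlap over all libraries (Itga3 and Crkl, both lower), where 14.9% of all genes did, 9.46% higher and 5.40% lower. Within lane 4 these and Dab1 did not overlap, 3 of 10 where 25.4% of genes did, 14.7% higher and 10.6% lower.

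**Figure D3:**
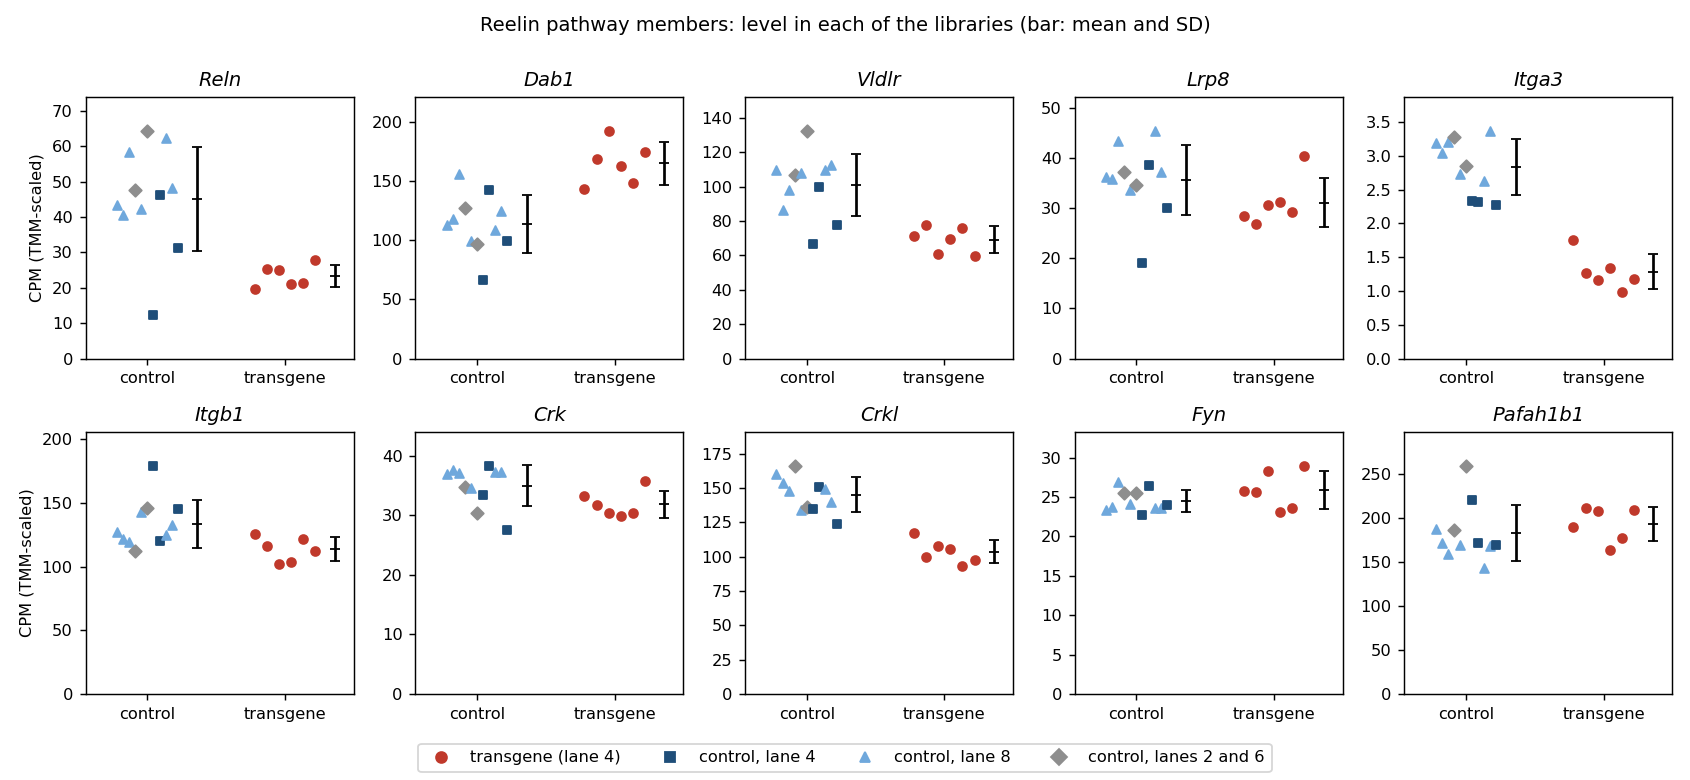
Level of each of the 10 members in every library (y axes, CPM from 0), by group, with symbols for lane and a bar for the mean and SD. The transgene libraries of Itga3 (0.987 to 1.76 CPM) and Crkl (93.5 to 117 CPM) lie below all controls, and control 7 is the lowest control for Reln, Dab1, Vldlr, Lrp8 and Fyn.

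The transcript rows were tested one by one as well, 18 of the 28 having enough counts. Over all libraries 3 rows rose and 5 fell, where 44.8% of 23353 rows were called (23.7% higher, 21.1% lower). Within lane 4, 3 rose and 3 fell, where 23.9% of 23511 were called (12.9% higher, 11% lower). Reln-207, Vldlr-207, Vldlr-208, Itga3-201 and Crkl-201 fell over all libraries, and Dab1-203, Dab1-201 and Pafah1b1-202 rose. Dab1-203, the long coding transcript with 98.8% of Dab1 counts, followed the gene at 0.56 ± 0.13 (adjusted p = 0.00151). Dab1-201, a short transcript of 996 bases with 1.2% of the counts, rose by 1.45 ± 0.20 (adjusted p = 1.15e-05), and by 1.35 ± 0.23 within lane 4 (adjusted p = 0.00191). It had 1.97, 2.78 and 3.25 CPM in transgene libraries and 0.613, 0.977 and 2.04 CPM in controls, where control 3 at 2.04 CPM was above 1 transgene library and the next control stood at 1.14.

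For Pafah1b1 the 2 rows differ in their first exon, which is 5′ UTR. Pafah1b1-201, with 94.7% of the counts and a first exon at chr11:74723999-74724670, had 178 ± 18 CPM with the transgene and 174.5 ± 31.9 in controls, a log2 difference of 0.06 ± 0.11 (adjusted p = 0.692). Pafah1b1-202, read on 659 bases at chr11:74723200-74723858, had 11.1, 13.6 and 22.4 CPM in transgene libraries and 5.52, 6.54 and 10.9 CPM in controls, and the groups did not overlap, as in 13.9% of all rows (8.95% higher). It rose by 0.99 ± 0.16 (adjusted p = 5.10e-05) and by 0.77 ± 0.26 within lane 4 (adjusted p = 0.0481). The lane 4 call was kept in 2 of 9 fits that left out 1 library and lost without control 8 or 11 or transgene 1, 2, 3, 5 or 6 (0.57 to 0.83), and with the granule cell list as a covariate the value over all libraries was 0.62 ± 0.28 and not called (adjusted p = 0.122). The log2 ratio of Pafah1b1-202 to Pafah1b1-201 was -4.08 to -3.06 with the transgene and -5.51 to -4.07 in controls.

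**Figure D4:**
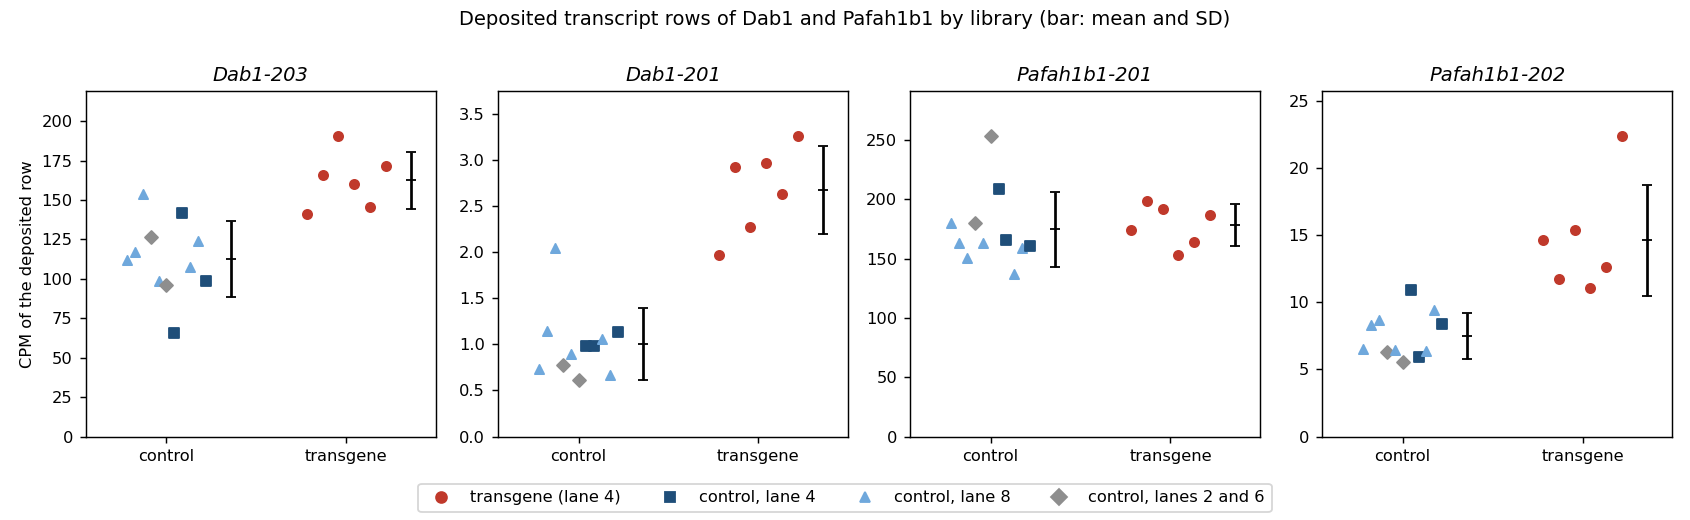
Level of the 2 deposited rows of Dab1 and of Pafah1b1 in every library (y axes, CPM from 0), by group, with a bar for the mean and SD. Pafah1b1-202 lies at 11.1 CPM or more in every transgene library and at 10.9 CPM or less in every control, while Pafah1b1-201 overlaps between the groups.

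The rows that hold the printed stretches of Vldlr, Lrp8 and Crk were set against another row of the same gene. These other rows, Vldlr-208, Lrp8-201 and Crk-203, were counted on 337, 1083 and 843 bases, all in the UTRs. The ratios therefore compare counts of rows and do not measure the use of the printed stretches. Vldlr-207 and Vldlr-208 both fell over all libraries, by 0.50 ± 0.12 (adjusted p = 0.00223) and 0.72 ± 0.17 (adjusted p = 0.00152), and their log2 ratio, Vldlr-208 to Vldlr-207, was -3.88 ± 0.23 with the transgene and -3.65 ± 0.27 in controls. Lrp8-203 had 10.5 ± 2.2 CPM with the transgene and 11.3 ± 2.9 in controls, and its log2 ratio to Lrp8-201 was -0.86 ± 0.14 and -1.0 ± 0.35. Crk-201 counts stood at 2.13 ± 0.24 log2 over those of Crk-203 with the transgene and at 1.92 ± 0.33 in controls. These ratios overlapped between the groups.

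Genes that varied like Reln from library to library were ranked by Pearson's r of log2 CPM deviations from the group means over the 17 libraries, among 15574 other genes (mean log2 CPM 0 or above). The points share each library's tissue composition and depth, and r is given as a description. Tcp11l2 (r = 0.96), Sestd1 (0.95), Kcnt1 (0.95) and 1190002N15Rik (0.94) were among the first 5. Tcp11l2 fell by 0.41, Kcnt1, a sodium-activated potassium channel, by 1.10 and 1190002N15Rik by 1.05 log2, and Sestd1 was at -0.11 (adjusted p = 0.625). Of the other members Lrp8 ranked 84 with r = 0.89, Vldlr 795 with 0.74 and Dab1 848 with 0.73, while Itgb1 ran the opposite way with r = -0.68. For Vldlr the sign differed between the groups, with r = 0.86 over the 11 controls and -0.52 over the 6 transgene libraries, whereas Lrp8 had 0.94 and 0.55, and Dab1 0.73 and 0.79.

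Other genes of the pathway, 66 in 8 lists, were counted beside the members. Of the 64 tested, 26 rose and 18 fell over all libraries, where 47.4% of all genes were called (23.0% higher, 24.4% lower). Within lane 4, 16 rose and 9 fell, where 25.6% of all genes were called (13.6% higher, 12% lower). These shares of all genes are also the background for the list counts given below. The median log2 fold change of the 64 pathway genes was 0.09 over all libraries, beside -0.05 for all genes. Within lane 4 it was 0.07, beside -0.04 for all genes. For each list up to 4 called genes with the smallest adjusted p-values were selected, 31 in all, of which 22 were also called within lane 4.

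Upstream of the receptors, 2 of 8 genes of reelin cleavage and receptor turnover rose and 3 fell. Adamts3, a protease of reelin, rose by 0.36 ± 0.12 (adjusted p = 0.0205), and was not called within lane 4 (0.41 ± 0.20, adjusted p = 0.16). Adamts2, a related protease that cleaves reelin at the same site, fell by 0.84 ± 0.16 (adjusted p = 0.000292), and Adamts5 by 0.90 ± 0.25 (adjusted p = 0.00637). Among 3 other ligands of the receptors Clu rose by 0.41 ± 0.06, while Apoe fell by 0.28 ± 0.10 and Thbs1 by 0.50 ± 0.20 (adjusted p = 2.47e-05, 0.0369 and 0.0498). The call was kept in 7 of 17 fits that left out 1 library for Apoe and in 3 of 17 for Thbs1, and neither was called within lane 4.

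At the level of Dab1, 1 of 7 genes rose and 4 fell. Src, the other main kinase of Dab1, rose by 1.03 ± 0.15 (adjusted p = 1.78e-05), from 1.74 ± 0.40 to 3.56 ± 0.43 CPM, and again within lane 4 by 0.89 ± 0.20 (adjusted p = 0.00868). The related kinases Lyn and Yes1 fell by 1.40 ± 0.29 and 0.44 ± 0.12, and Dab2ip, a Ras GTPase-activating protein that binds Dab1 and Dab2, by 1.20 ± 0.26; none of these 3 was called within lane 4.

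Downstream of Dab1, 3 of 8 adaptor and Rap1 genes rose and 1 fell. Nck2, an adaptor that binds phosphorylated Dab1, rose by 0.62 ± 0.094, and the adhesion proteins N-cadherin (Cdh2) and Nectin3 by 0.40 ± 0.097 and 0.41 ± 0.089, while the GTPase Rap1a fell by 0.42 ± 0.11. Of 10 genes of the PI3K, tau and cofilin branch 5 rose and 1 fell: Pik3r2, a regulatory subunit of PI3K, rose by 0.83 ± 0.11, Cfl1 (cofilin) by 0.38 ± 0.086 and Mapt (tau) by 0.22 ± 0.056, and Limk1, the kinase of cofilin, fell by 1.07 ± 0.25. Within lane 4 Limk1 fell by 1.54 ± 0.26 (adjusted p = 0.00199), while Nectin3 (0.35 ± 0.15, adjusted p = 0.106), Cfl1 (0.21 ± 0.13, adjusted p = 0.253) and Mapt (0.27 ± 0.090, adjusted p = 0.0507) were not called there.

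Among 11 genes of the Lis1, dynein and Cdk5 list 5 rose and 2 fell. The Cdk5 activators Cdk5r1 (p35) and Cdk5r2 (p39) rose by 1.43 ± 0.14 and 1.49 ± 0.16 (adjusted p = 2.93e-07 and 9.70e-07), with no transgene library of Cdk5r1 under 778 CPM and no control above 488. The microtubule proteins of migrating neurons Dcx and Dclk1 rose by 1.79 ± 0.32 and 0.93 ± 0.13. Within lane 4 Dcx rose by 1.21 ± 0.38 (adjusted p = 0.0403), a call kept in 3 of 9 fits that left out 1 library. Over all libraries its call was kept in 8 of 10 other settings. Of 12 tested integrin subunits other than the members 5 rose and 5 fell: Itga8 and Itga5 rose by 1.22 ± 0.20 and 0.84 ± 0.12, and Itga7 and Itgb5 fell by 1.78 ± 0.22 and 0.59 ± 0.077.

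Among the synaptic partners of Lrp8, 4 of 5 genes rose in both comparisons. Grin2b, an NMDA receptor subunit, rose by 2.52 ± 0.35 (adjusted p = 1.29e-05), from 37.5 to 280 CPM in controls to 518 to 759 CPM, Arc by 1.81 ± 0.36, Dlg4 (PSD-95) by 1.37 ± 0.19 and Grin2a by 1.16 ± 0.14. The forebrain marker Tbr1 rose as well, by 3.40 ± 0.85 (adjusted p = 0.00294). What part of the rise of these 4 genes goes with that marker was not tested.

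**Figure D5:**
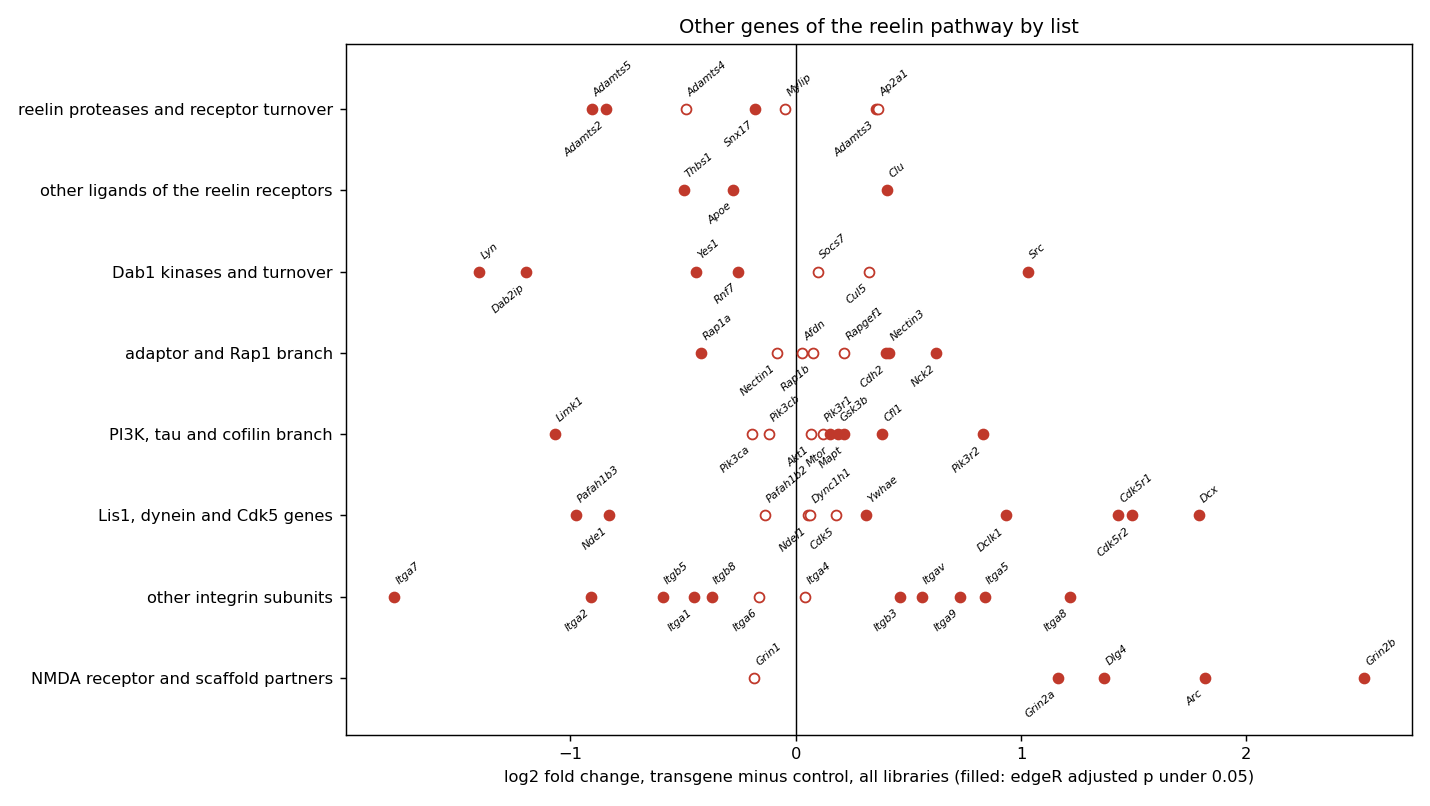
Log2 fold change over all libraries (x axis) of the other pathway genes, 1 row of points for each of the 8 lists, filled where the adjusted p was under 0.05. Of the genes drawn, Grin2b (2.52) lies farthest to the right and Itga7 (-1.78) farthest to the left.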

How the data were processed

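The authors deposited 1 raw count table per library, with 68517 rows for Ensembl transcripts or assembled loci, 5 of them closing rows (no feature, ambiguous and others) that were left out of library sizes and tests. Build mm10 is per the submitters' processing notes. Aligner, counter and strand setting were not given in the sources used here. Of the rows, 64380 matched GENCODE M21 transcripts by identifier without version and were summed by gene. Tests used edgeR 4.0.16 (TMM, filterByExpr, quasi-likelihood, Benjamini-Hochberg, threshold 0.05) in R 4.3.3 over the whole table, and were checked on simulated counts. Alternatives used DESeq2 1.42.0, limma 3.58.1, other scalings, filters and covariates. Named genes are all members and, from each list, up to 4 called genes with the smallest adjusted p over all libraries and a mean log2 CPM of at least 0, plus Trp73, Lhx1, Gabra6, Tbr1, Hoxb5 and the 5 genes most like Reln. Some genes selected by this rule are not reported here. Members and lists were chosen with earlier results of these data known. No pair of libraries agreed within sampling noise (mean chi-square per gene at least 9.97 where 1 is expected).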

Additional observations from a re-analysis of the deposited data

Results flagged for a closer look

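In 7 of 50 groups of 6 libraries (the transgene group and the lane 8 controls, for each member and tested row), 1 library stood farther from the others than Dixon's 95% limit allows. For independent groups chance gives about 1 in 20. A member and its rows share counts, so these groups are not independent and the 2 shares cannot be set side by side. Lrp8 was highest in transgene 6 at 40.5 CPM, with the next library at 31.1 CPM, and its row Lrp8-201 likewise at 23.8 CPM (next 18.7). Crk was lowest in control 5 at 34.6 CPM, with the next at 36.9 CPM, and Lrp8-203 was lowest there too at 8.65 CPM (next 13.2). Control 3 was highest for Fyn at 27.0 CPM (next 24.1), for its row Fyn-202 at 25.1 CPM (next 22.6) and for Dab1-201 at 2.04 CPM (next 1.14).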

How the results depend on the processing

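Dab1 and Itga3 kept their calls over all libraries in each of 10 other settings, and Crkl in 9. With the granule cell list as a covariate 4712 genes (24.6%) and 3 members were called over all libraries. Under it 2 members were called within lane 4 (Dab1 and Itgb1, where 20.9% of all genes were called). The same covariate left 5090 rows (21.8%) called over all libraries, 4 of them among the 18 tested rows of members. It left 3 rows of members called within lane 4, where 19.5% of all rows were called. That covariate turned the sign over all libraries of Reln (0.52), Lrp8 (0.50), Pafah1b1 (-0.069), Dab2ip (0.39), Reln-207 (0.57) and Pafah1b1-201 (-0.052), and within lane 4 of Reln (0.53), Pafah1b1 (-0.084), Dab2ip (0.33), Thbs1 (0.0019) and Reln-207 (0.52). In the model with terms for lane and flow cell, whose fold changes rest on the lane 4 libraries, 5887 genes passed and Lrp8 was at 0.090. The causes of these changes were not tested. Of the 31 selected pathway genes, 17 were still called over all libraries with the covariate and 24 with the lane factor.

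Scaling by library size alone moved the median of all genes from -0.05 to -0.16 log2, and the share of calls that were higher from 48.6% to 35.6% (within lane 4 from 53.0% to 44.8%). It turned Fyn (-0.040), Pafah1b1 (-0.035) and Pafah1b1-201 (-0.088) over all libraries, and Lrp8 (-0.0057) and Pafah1b1 (-0.032) within lane 4. Taking the row with the most counts turned Crk (0.011), Pafah1b1 (-0.022) and Nectin3 (-0.0032) within lane 4. Without control 7 and transgene 3, chosen after seeing the data, 2 members were called within lane 4 (Reln and Crkl, where 18.5% of all genes were called), and Lrp8 (-0.16), Fyn (-0.0092) and Pafah1b1-201 (0.083) turned there. Between the control lanes DESeq2 called 1 gene, and Fyn was at -0.0092 with RLE factors, -0.010 without a filter and -0.00948 with DESeq2.

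Leaving out 1 library gave 8177 to 9550 genes and 5 to 7 members over all libraries, 3712 to 4863 genes and 2 to 4 members within lane 4, 0 to 88 genes between the control lanes (88 without control 8), 9412 to 11104 rows and 8 to 10 rows of members over all libraries, and 4218 to 5526 rows and 3 to 5 rows of members within lane 4. Fits without 1 library that turned a sign spanned, within lane 4, -0.74 to 0.091 for Reln, -0.15 to 0.33 for Lrp8, -0.19 to 0.050 for Crk, -0.050 to 0.17 for Pafah1b1, -0.11 to 0.12 for Pafah1b1-201 and -0.74 to 0.087 for Reln-207; between the control lanes, -0.023 to 0.53 for Dab1 and -0.064 to 0.062 for Fyn; and -0.0048 to 0.11 for Pafah1b1-201 over all libraries. No paired analysis was possible because replicate numbers were given in accession order and the labels do not say what the number leading each title means. With that title number as a block, 3041 genes (15.8% of those tested, 60.6% of them higher) and 2 members, Dab1 and Crkl, were called within lane 4, and the calls of Itga3 (-1.04, adjusted p = 0.0547) and Itgb1 (-0.39, adjusted p = 0.0981) were lost. Depth limits Itga3 most, at 20 to 71 counts in a library.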

Other observations

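The members differed in how evenly they were expressed among libraries of 1 group. Reln was the most uneven member among the controls, with a coefficient of variation of 32.5% (SD over mean, n = 11), and stood at 13.6% among the transgene libraries (n = 6). Dab1 followed with 21.3% and 11%, and Lrp8 with 19.6% and 15.6%. Fyn was the most even among controls at 5.57%, with 9.18% in the transgene group, and Crkl had 8.69% and 8.18%. Control 7 was the lowest control for 5 members, Reln, Dab1, Vldlr, Lrp8 and Fyn, and Itgb1 was highest in that library at 179 CPM. Control 7 also had the highest summed levels of the oligodendrocyte and astrocyte lists, 5115 and 2459 CPM. The part of these lists in the member levels was not tested.

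Markers that the rule for named genes added but that no comparison above used had these values. Gabra6, a GABA-A receptor subunit of granule cells, was at 0 to 5.91 CPM in transgene libraries and 0.233 to 37.7 CPM in controls, and Hoxb5, a hindbrain and cord gene, at 0 to 0.094 and 3.74 to 89.4 CPM.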
